A study of Homo sapiens with 6 samples.

Results

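The genes described are 40 genes of glycolysis and of the hypoxia response, chosen by name for these pathways and found by symbol in the gene table, which lists 16306 genes. They comprise 17 glycolytic enzymes, 5 kinases that set the pace of glycolysis or of pyruvate entry into mitochondria, 6 hypoxia-inducible factors (HIFs) and oxygen sensors, and 12 other targets of the HIFs. They were read by RNA sequencing in PC9 cells, an established human lung adenocarcinoma line whose EGFR gene carries an activating deletion within an exon. The study compared 3 libraries of PC9 cells with a negative control shRNA (sh-NC) with 3 libraries of PC9 cells with an shRNA against RBM10 (shRBM10). RBM10 is a splicing factor that binds RNA, and the study asked what its loss changes in this line. All 6 libraries come from the 1 line, with no drug and no low-oxygen treatment named in the labels. The labels do not say which of the study's RBM10 shRNAs was used, whether cells were pooled or cloned, or whether the libraries came from separate cultures, so the tests measure the spread between libraries, which may be technical. The shRBM10 libraries are called A, B and C, because only A could be matched to a replicate number of the labels. One protocol sentence in the labels concerns retinas, whereas every label of cell line and source gives PC9.

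Glycolysis splits glucose into pyruvate in the cytosol, and lactate dehydrogenase turns pyruvate into lactate, which lets the pathway run without oxygen. The HIFs are transcription factors whose alpha subunits (HIF1A, EPAS1) are hydroxylated by the EGLN enzymes when oxygen is present, bound by VHL and degraded. When oxygen is short they persist and switch on genes that carry a short motif near their start, among them most glycolytic enzymes, VEGFA and CA9. Many tumor lines keep glycolysis high in the presence of oxygen.

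The promoters of 35 of the 40 genes were found by symbol in the RefSeq promoter table (GRCh38.p14), as windows of 300 bases that run from 250 bases before to 50 bases after the start. Only 1 entry per symbol was kept, so its start can differ from the GENCODE starts given elsewhere. The core HIF motif was searched as its 2 forms, ACGTG and GCGTG, on both strands. ACGTG was present in 15 of the 35 windows (42.9%), against 21.6% of all 27305 windows of the table. GCGTG was present in 17 of them (48.6%), against 36.3% of all. The palindrome CACGTG, which holds ACGTG on both strands and is also the core motif of other factors such as MYC, was present in 6 (17.1%), against 7.43% of all. These matches are letters and not binding sites. All windows of the table were not matched to those of the genes in GC content, and enrichment was not tested. Among the glycolytic enzymes, 8 of 17 windows held ACGTG, and among the other HIF targets 5 of 9. The windows of CA9, P4HA1 and LDHA are shown because CA9 and P4HA1 are HIF targets with values on opposite sides in this comparison and LDHA is the enzyme whose transcript starts are described further on. Capitals mark ACGTG on either strand, so that it shows as ACGTG, as its reverse complement CACGT or as the palindrome CACGTG. CA9 lies at chr9:35673678-35673977 on the plus strand, P4HA1 at chr10:73096817-73097116 on the minus strand and LDHA at chr11:18394313-18394612 on the plus strand.
CA9: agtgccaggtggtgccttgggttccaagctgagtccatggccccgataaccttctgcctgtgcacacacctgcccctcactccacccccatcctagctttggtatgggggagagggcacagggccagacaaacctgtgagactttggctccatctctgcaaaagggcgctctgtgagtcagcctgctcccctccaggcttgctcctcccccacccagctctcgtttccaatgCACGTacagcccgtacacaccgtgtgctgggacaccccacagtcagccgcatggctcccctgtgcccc
P4HA1: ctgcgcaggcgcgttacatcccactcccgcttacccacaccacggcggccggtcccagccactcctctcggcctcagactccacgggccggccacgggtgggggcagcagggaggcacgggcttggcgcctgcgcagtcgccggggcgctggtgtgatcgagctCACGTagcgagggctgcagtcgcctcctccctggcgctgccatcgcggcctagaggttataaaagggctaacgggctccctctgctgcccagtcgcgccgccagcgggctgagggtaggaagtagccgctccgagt
LDHA: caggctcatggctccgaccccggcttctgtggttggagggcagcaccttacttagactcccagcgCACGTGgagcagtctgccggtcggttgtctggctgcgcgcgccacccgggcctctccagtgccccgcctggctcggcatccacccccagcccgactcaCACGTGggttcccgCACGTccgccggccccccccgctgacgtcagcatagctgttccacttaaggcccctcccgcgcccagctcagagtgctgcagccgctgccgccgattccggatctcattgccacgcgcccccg
The CA9 window held 1 match, which began 18 bases before the start, the P4HA1 window 1 match and the LDHA window 5 matches counted over both strands.

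The M1 and M2 exons of PKM, pyruvate kinase, are shown because they are the textbook case of a splicing choice in glycolysis: each transcript carries only 1 of them, and the M2 form is the one typical of proliferating cells. In GENCODE release 29 (GRCh38) the M1 exon lies at chr15:72203022-72203188 and the M2 exon at chr15:72202454-72202620, both on the minus strand and both 167 bases long. The 62 bases at which they differ are in capitals, and the other 105 (62.9%) are identical.
M1 exon: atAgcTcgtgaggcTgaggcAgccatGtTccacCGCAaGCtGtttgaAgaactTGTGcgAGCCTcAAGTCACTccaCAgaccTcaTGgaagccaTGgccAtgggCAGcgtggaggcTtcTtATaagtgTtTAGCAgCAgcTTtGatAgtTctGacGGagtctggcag
M2 exon: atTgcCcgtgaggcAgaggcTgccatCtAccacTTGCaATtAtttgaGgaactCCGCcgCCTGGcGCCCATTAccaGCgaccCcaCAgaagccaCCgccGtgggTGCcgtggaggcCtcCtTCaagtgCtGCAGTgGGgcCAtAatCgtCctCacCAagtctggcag

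The libraries held between 16606390 and 18864243 counts on genes. Counts were scaled by the TMM method of edgeR, which assumes that most genes do not change, and are given below as normalized counts. RBM10 (chrX:47144869-47186813) had normalized counts of 1431, 1183 and 1469 in sh-NC replicates 1 to 3, against 537, 515 and 672 in shRBM10 libraries A to C. All 3 shRBM10 libraries were below all 3 sh-NC libraries, with a log2 fold change of -1.24 (SE 0.23, adjusted p = 0.10 in edgeR's quasi-likelihood test), so the labelled knockdown was seen in each library although the adjusted p missed the threshold. DESeq2 gave a log2 fold change of -1.26 with an adjusted p of 0.00157. All 8 markers of lung epithelium had over 10 counts in every library. Of 6 leukocyte markers, 5 were found by symbol and 2 had over 10 counts in every library. The summed counts were 2094 to 2462 in sh-NC against 1830 to 2468 in shRBM10. CD68 made up most of them (1795 to 2442), with PTPRC at 0 to 7. Of 5 endothelial markers, 1 had over 10 counts in every library, CDH5 (40 to 177). The sums were 73 to 207 in sh-NC and 48 to 73 in shRBM10, with KDR and TEK at 0 or 1. Of 6 fibroblast markers, 4 were found and 1 had over 10 counts in every library, COL1A1 (28 to 185). The sums were 43 to 138 and 106 to 212, with COL1A2 and COL3A1 at 0 to 2. Of 7 retina markers, 3 were found and 1 had over 10 counts in every library, NRL (64 to 115). The sums were 95 to 115 and 66 to 81, with RLBP1 at 0 or 1.

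A pair of features of the libraries touches most of the results. The first is sh-NC replicate 2, whose counts depended on transcript length: relative to sh-NC replicates 1 and 3, its log2 normalized count changed by -0.60 for each doubling of transcript length, against between -0.06 and 0.22 in the shRBM10 libraries. The second is GC content: relative to the same 2 libraries, the log2 normalized count changed by -0.62 in library A and -0.45 in library B for each 10 percentage points of GC, by 0.23 in sh-NC replicate 2 and by 0.01 in library C. Values with the GC trend removed from the counts or without sh-NC replicate 2 are given beside the results that they move most, and the plot of fold changes shows both for all 40 genes.

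Levels can be compared between genes only per length, for which the deposited TPM of the sh-NC libraries were used, a count per transcript length scaled to the same total in each library. The glycolytic enzymes had a median of 306 TPM, against 8.34 TPM for all 12620 genes tested. GAPDH, the dehydrogenase in the middle of the pathway, stood at 18636, 20555 and 19610 TPM in sh-NC replicates 1 to 3 and was the highest of the 40 genes. Next came ENO1 (enolase 1) at a mean of 2691 TPM (SD 84.6, n = 3), then ALDOA (aldolase A) at 1932 (SD 179) and TPI1 (triosephosphate isomerase) at 1894 (SD 89.0), which did not differ beyond their spread. PKM stood at 1280 TPM (SD 136) and LDHA at 691 (SD 61.8). The entry enzyme of the pathway was carried by HK1 (158, 67.3 and 163 TPM) more than by HK2 (10.8, 2.19 and 11.8 TPM), the hexokinase known for its rise in tumors. The control kinases lay between 1.79 and 9.79 TPM on average. Of the alpha subunits, EPAS1 (111, 27.6 and 111 TPM) stood above HIF1A (24.8, 3.90 and 24.2 TPM) in each sh-NC library. Among the other HIF targets, VEGFA, the angiogenic growth factor, was highest at a mean of 64.6 TPM (SD 34.8), and the carbonic anhydrases CA9 (0.887, SD 0.317) and CA12 (0.143, SD 0.10) were the lowest of the 40 genes. The plot of TPM shows this order, and also that sh-NC replicate 2 lay below the other two for most genes that follow PGK1 in it.

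**Figure D1:**
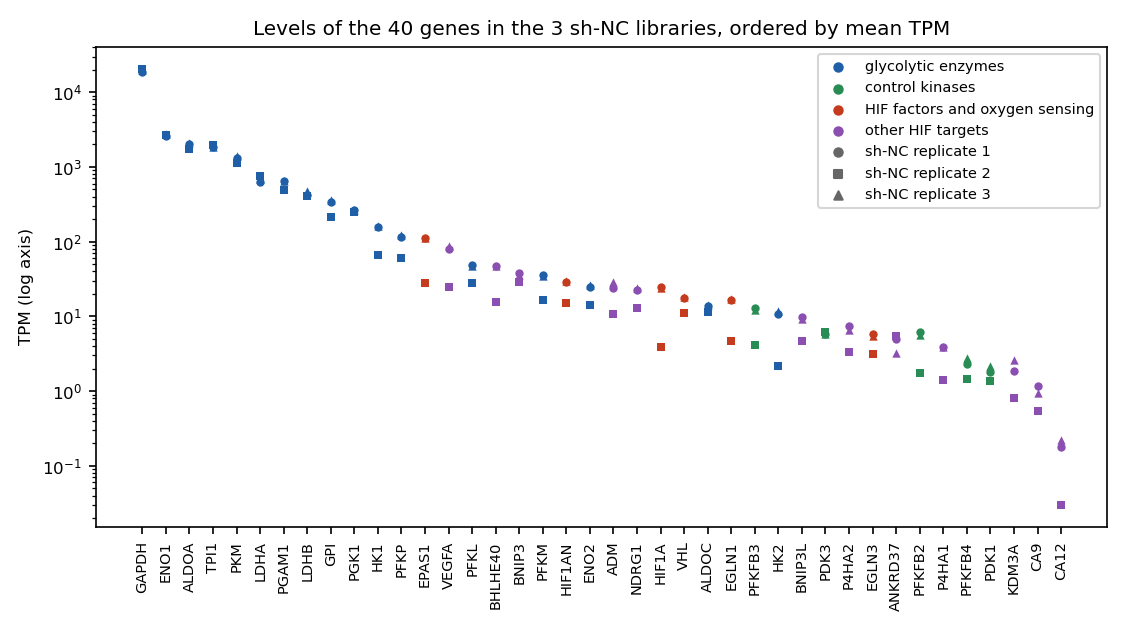
TPM (log axis) of the 40 genes in the 3 sh-NC libraries, ordered from left to right by mean TPM, with 1 point for each library and colors for the 4 groups of genes. GAPDH is highest at 18636 to 20555 TPM, the enzymes fill the upper end, and CA9 and CA12 lie at the lower end.

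The scale decides how far sh-NC replicate 2 stands apart. Its normalized count of GAPDH was 2.11 times the mean of replicates 1 and 3, while its TPM of GAPDH was 1.07 times theirs. For HIF1A these ratios were 0.317 and 0.159. On both scales the short and abundant GAPDH transcript was high in that library relative to the long HIF1A transcript.

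In the comparison of shRBM10 with sh-NC, 0 of the 40 genes passed an adjusted p under 0.05 with an absolute log2 fold change over 1 in edgeR, against 0.0158% of all 12620 genes tested. All 40 genes passed the filter on low counts. At an unadjusted p under 0.05 there were 10: 5 higher, beside 15.7% of all genes, and 5 lower, beside 8.6%. The limma-voom test also called 0 of the 40. DESeq2 called 3, namely KDM3A, BNIP3L and P4HA1, all higher, against 3.64% of all genes. It gave no adjusted p for CA9 (log2 fold change -1.78 in DESeq2) and CA12, so neither could be called. At an unadjusted p under 0.05 with the fold limit, 4 genes were higher (HIF1A, BNIP3L, P4HA1 and KDM3A), as were 10.1% of all genes, and 2 were lower (CA9 and ANKRD37), as were 1.53% of all genes. With the GC trend removed the counts were 1 higher (KDM3A) and 1 lower (CA9), beside 2.44% and 2.16% of all genes. Without sh-NC replicate 2 they were 2 higher and 1 lower, beside 4.81% and 1.54%. By fitted direction 15 of the 40 genes were higher and 25 lower, with a median log2 fold change of -0.08 against 0.03 for all genes. Under scaling by library size alone this split was 21 higher and 19 lower, with the median of all genes at 0.16.

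The normalized counts of the groups did not overlap in 5 genes that were higher in shRBM10 (PFKM, EGLN3, BNIP3L, P4HA1 and P4HA2), beside 13.8% of all genes. They did not overlap in 7 genes that were lower (GPI, TPI1, GAPDH, PGAM1, ENO1, ENO2 and CA9), beside 16.2% of all genes. Of these 7, 6 are enzymes of glycolysis. The plot of counts by library shows all 40 genes.

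**Figure D2:**
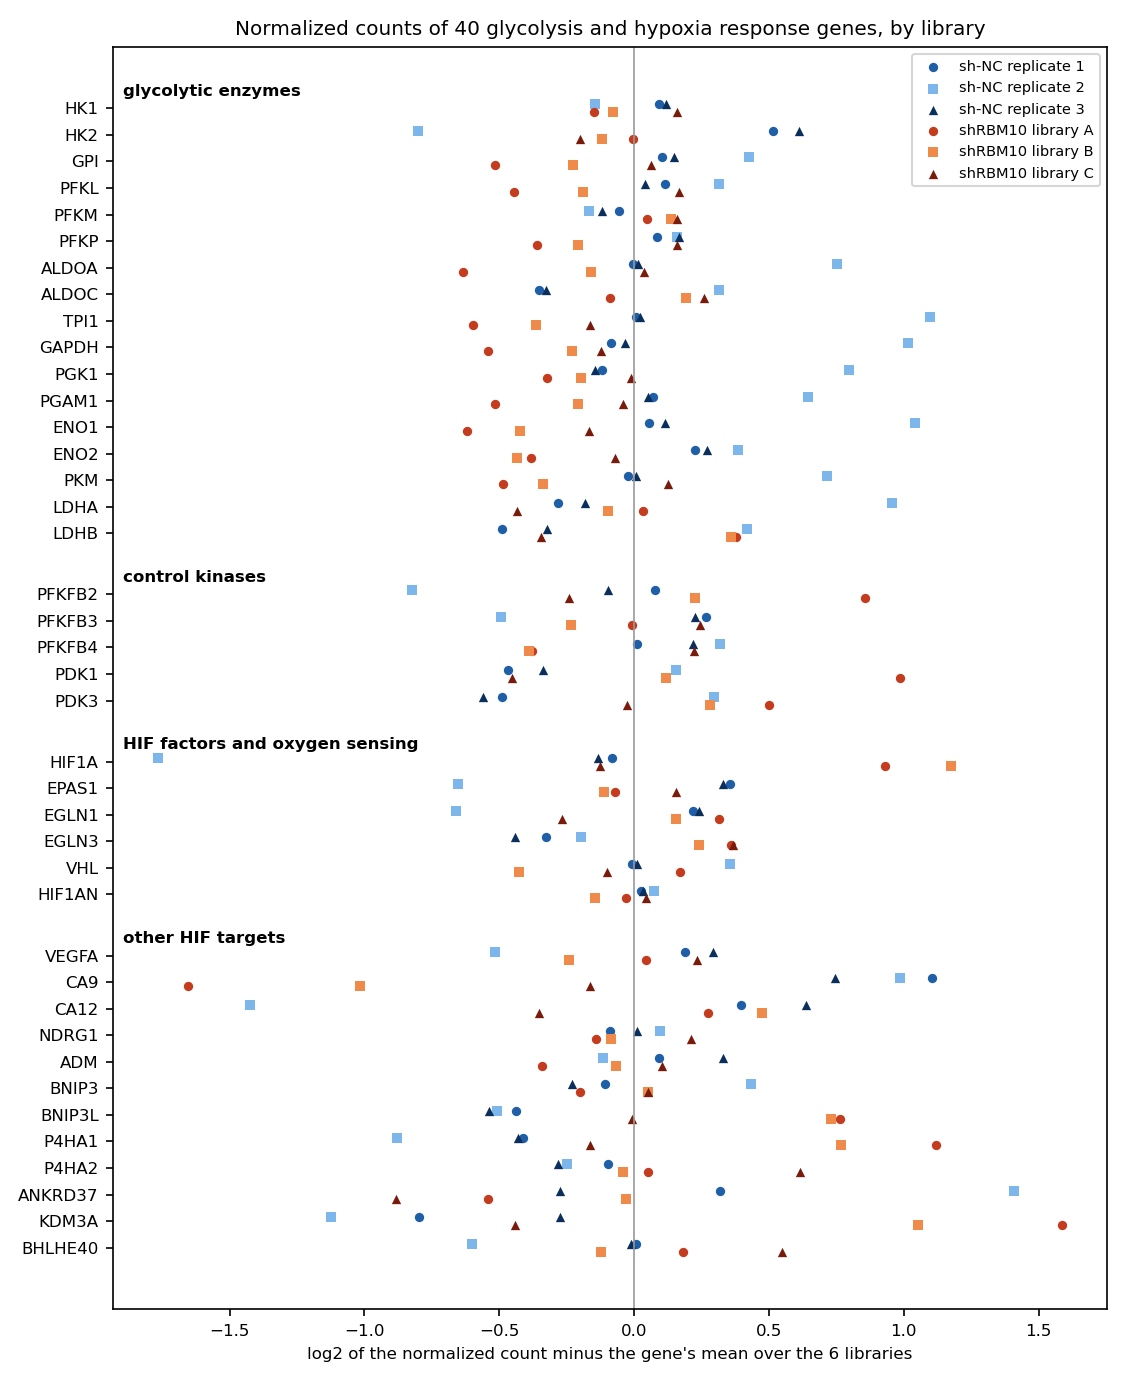
The log2 normalized count of each of the 40 genes in each library, less the gene's mean over the 6 libraries (x axis), with blue points for sh-NC and red or orange points for shRBM10. The light blue squares of sh-NC replicate 2 lie far to the right in most glycolytic enzymes and far to the left in HIF1A and HK2, and library C (dark red triangles) lies nearer to sh-NC than A and B in HIF1A, BNIP3L, P4HA1 and KDM3A.

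Among the glycolytic enzymes 14 of 17 had lower values in shRBM10 (median log2 fold change -0.43), beside 6106 of all 12620 genes tested. None of the 17 passed the adjusted test in the fit of all 6 libraries. Summed over the 17 enzymes, they took 2.90%, 3.94% and 2.99% of all counts in sh-NC replicates 1 to 3, against 2.15%, 2.48% and 2.70% in libraries A to C, and these shares did not overlap. GAPDH alone took 1.55%, 2.27% and 1.60% in sh-NC against 1.13%, 1.35% and 1.44% in shRBM10. In such bulk samples fewer cells with a high level and less RNA in each cell cannot be told apart. The median was -0.27 with the GC trend removed, -0.31 without sh-NC replicate 2 and -0.03 with both.

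The upper part of the pathway spends ATP on glucose. HK1, the main hexokinase here, had normalized counts of 7217, 6120 and 7337 in sh-NC against 6102, 6412 and 7555 in shRBM10, so the groups overlapped (log2 fold change -0.04, SE 0.23, with 0.10 after removal of the GC trend and -0.20 without sh-NC replicate 2). HK2 (chr2:74833981-74893359) stood at 794, 319 and 849 in sh-NC and at 553, 512 and 483 in shRBM10. Its low sh-NC value came from replicate 2, and the fitted change was -0.34 (SE 0.35, adjusted p = 0.532) with all libraries and -0.75 (adjusted p = 0.110) without that replicate. GPI, which turns glucose 6-phosphate into fructose 6-phosphate, stood at 7789, 9747 and 8030 in sh-NC and at 5075, 6191 and 7561 in shRBM10, with every shRBM10 library lower (-0.44, SE 0.25, and -0.29 with the GC trend removed). Of the phosphofructokinases, which catalyse the committing step, PFKM stood at 1353, 1252 and 1295 in sh-NC and at 1455, 1545 and 1568 in shRBM10, with every shRBM10 library higher but by a small step (0.23, SE 0.20). The change of PFKM was 0.37 with the GC trend removed and 0.12 without sh-NC replicate 2. PFKL (-0.29) and PFKP (-0.25) overlapped between the groups, and with the GC trend removed their changes were 0.03 and -0.01. ALDOA had a fitted change of -0.53 and ALDOC, the brain-type aldolase, of 0.22, and neither separated the groups. These were -0.20 and 0.47 with the GC trend removed, and -0.31 and 0.39 without sh-NC replicate 2.

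The lower part of the pathway recovers ATP. TPI1 stood at 27387, 58387 and 27654 in sh-NC and at 18021, 21178 and 24336 in shRBM10 (log2 fold change -0.84, SE 0.36, adjusted p = 0.198). GAPDH (chr12:6533927-6538374) stood at 263545, 565253 and 272717 in sh-NC and at 191811, 237873 and 256630 in shRBM10 (-0.68, SE 0.44, adjusted p = 0.335). In both genes every shRBM10 library was lower, library C came closest to sh-NC, and sh-NC replicate 2 stood at 2.12 times the mean of its fellow replicates for TPI1 and at 2.11 times for GAPDH. Without that replicate the changes were -0.46 for TPI1 and -0.31 for GAPDH, and with the GC trend removed as well -0.17 and 0.01. They were -0.57 and -0.39 with the GC trend removed and all libraries kept.

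ENO1 stood at 55105, 109111 and 57466 in sh-NC and at 34547, 39570 and 47299 in shRBM10. The groups did not overlap, and the change was -0.87 (SE 0.37, adjusted p = 0.192), -0.58 with the GC trend removed, -0.56 without sh-NC replicate 2 and -0.24 with both. ENO2, the neuron-type enolase, stood at 701, 783 and 723 in sh-NC and at 460, 444 and 571 in shRBM10. Here sh-NC replicate 2 lay close to the other two, and the change was -0.58 (SE 0.23, adjusted p = 0.178), -0.62 without that replicate and -0.38 with the GC trend removed, so ENO2 was lower in each of these fits. PGAM1, phosphoglycerate mutase, stood at 13697, 20421 and 13506 in sh-NC and at 9135, 11287 and 12666 in shRBM10, without overlap (-0.53, SE 0.28, and -0.38 either with the GC trend removed or without sh-NC replicate 2). PKM (chr15:72199029-72231822) stood at 37474, 62437 and 38200 in sh-NC and at 27137, 30076 and 41519 in shRBM10, where library C was above 2 sh-NC libraries (-0.48, SE 0.33). The change of PKM was -0.21 with the GC trend removed, -0.28 without sh-NC replicate 2 and 0.02 with both. PGK1, phosphoglycerate kinase, had a change of -0.42 with overlap, which was -0.86 with the GC trend removed and -0.12 without sh-NC replicate 2. Several of these enzymes, GAPDH and PGK1 among them, have many processed pseudogenes, and how the counting divided reads between gene and copies is not given in the sources used here.

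The lactate dehydrogenases had fitted changes of opposite sign. LDHA (chr11:18394388-18408425), the subunit that favors lactate production, stood at 17175, 40525 and 18414 in sh-NC and at 21375, 19540 and 15440 in shRBM10 (-0.43, SE 0.37). LDHB, the subunit that favors the return to pyruvate, stood at 6052, 11375 and 6790 in sh-NC and at 11056, 10918 and 6693 in shRBM10 (0.24, SE 0.32). Each gene alone overlapped between the groups. Without sh-NC replicate 2 LDHA had a change of -0.01 and LDHB of 0.49, and with the GC trend removed -0.89 and 0.00.

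The control kinases had a median log2 fold change of 0.47 and overlapped between the groups in all 5 cases. PFKFB2, PFKFB3 and PFKFB4, which make and break the fructose 2,6-bisphosphate that drives phosphofructokinase, had changes of 0.58, -0.03 and -0.34. PDK1 and PDK3, which shut pyruvate dehydrogenase by phosphorylation, had changes of 0.53 and 0.47. With the GC trend removed the median was 0.03, with PFKFB2 at 0.07, PFKFB3 at 0.18, PFKFB4 at -0.11, PDK3 at 0.03 and PDK1, whose GC content is 39.8%, at -0.27. Without sh-NC replicate 2 the median was 0.27.

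HIF1A (chr14:61695513-61748259) stood at 1249, 389 and 1203 in sh-NC and at 2518, 2985 and 1208 in shRBM10. Libraries A and B were above every sh-NC library, library C was level with sh-NC replicates 1 and 3, and sh-NC replicate 2 was by far the lowest. The log2 fold change was 1.24 (SE 0.46, adjusted p = 0.172), or 2.36-fold, and was 0.78 without sh-NC replicate 2. The HIF1A transcript has a GC content of 36.4%. The change was 0.55 with the GC trend removed, and 0.26 with the GC trend removed and without sh-NC replicate 2. EPAS1, which encodes HIF-2 alpha, stood at 7421, 3689 and 7296 in sh-NC and at 5522, 5368 and 6475 in shRBM10. All 3 shRBM10 libraries lay between the low replicate 2 and the other two of sh-NC (-0.08, SE 0.30). Without replicate 2 the change of EPAS1 was -0.43.

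EGLN3, an oxygen sensor and itself a HIF target, stood at 191, 210 and 177 in sh-NC and at 308, 284 and 309 in shRBM10. Both groups were tight and did not overlap. The change was 0.64 (SE 0.26, adjusted p = 0.181), 0.62 with the GC trend removed and 0.62 without sh-NC replicate 2, and it lay between 0.57 and 0.78 in all alternatives run. EGLN1, the main oxygen sensor of most cells, had a change of 0.10, VHL, the recognition subunit that marks HIF for degradation, of -0.23, and HIF1AN, which blocks the activation domain of HIF, of -0.08, all with overlap. These 3 changes were -0.33, -0.39 and -0.27 with the GC trend removed. The median of the 6 genes was 0.01.

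The other HIF targets divided evenly, 6 higher and 6 lower, with a median log2 fold change of 0.00. With the GC trend removed 10 were higher and 2 lower (median 0.16), while 48.6% of all genes were higher. Under scaling by library size alone 9 were higher and 3 lower, while 59.9% of all genes were higher. CA9 (chr9:35673856-35681159), a carbonic anhydrase of the cell surface widely used as a marker of hypoxia, stood at 20.9, 19.2 and 16.2 in sh-NC and at 3.08, 4.79 and 8.64 in shRBM10. All shRBM10 libraries were below all sh-NC libraries, on counts of few reads. The change of CA9 was -1.74 (SE 0.44, adjusted p = 0.144), -1.48 with the GC trend removed and -1.80 without sh-NC replicate 2. ANKRD37 stood at 35.4, 75.3 and 23.5 in sh-NC and at 19.5, 27.8 and 15.4 in shRBM10. These values overlapped, and the change of -1.07 (SE 0.47, adjusted p = 0.201) went to -0.57 without sh-NC replicate 2 and to -0.81 with the GC trend removed.

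KDM3A (chr2:86440647-86492716), a histone H3 lysine demethylase induced by HIF, stood at 108, 86.3 and 155 in sh-NC and at 564, 389 and 138 in shRBM10. Libraries A and B were far above every sh-NC library while library C lay inside the sh-NC range. Its fitted change was the largest increase of the 40 genes at 1.64 (SE 0.48, adjusted p = 0.153), 1.19 with the GC trend removed and 1.37 without sh-NC replicate 2. P4HA1, a catalytic subunit of the prolyl hydroxylase that matures collagen, stood at 132, 95.9 and 131 in sh-NC and at 383, 300 and 158 in shRBM10. BNIP3L, a mitophagy receptor, stood at 424, 404 and 395 in sh-NC and at 976, 952 and 571 in shRBM10. Both genes separated the groups, again with library C nearest to sh-NC. The changes were 1.22 (SE 0.36, adjusted p = 0.153) for P4HA1 and 1.03 (SE 0.27, adjusted p = 0.146) for BNIP3L. Without sh-NC replicate 2 they were 1.00 and 0.94. With the GC trend removed they were 0.51 and 0.29, and the transcripts have a GC content of 40.8% and 38.9%, against a median of 49.3% for all genes tested.

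P4HA2, the partner isoform of P4HA1, stood at 443, 400 and 391 in sh-NC and at 492, 462 and 728 in shRBM10, without overlap (0.45, SE 0.26) and with library C highest. The change of P4HA2 was 0.16 without library C and between 0.35 and 0.57 with any other 1 library left out. VEGFA stood at 3370, 2068 and 3629 in sh-NC and at 3054, 2504 and 3474 in shRBM10 (-0.01, SE 0.27, and -0.30 without sh-NC replicate 2). The shRBM10 values of VEGFA lay inside the sh-NC range. The remaining targets overlapped between the groups: BHLHE40, a repressor of the clock, had a change of 0.40, ADM (adrenomedullin) of -0.21, BNIP3 of -0.09, and NDRG1 and CA12 of 0.00. Without sh-NC replicate 2 BHLHE40 was at 0.15, ADM at -0.39 and CA12 at -0.43, and with the GC trend removed ADM was at 0.06 and NDRG1 at 0.26.

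In the plot of fold changes in 3 fits, EGLN3 and CA9 are examples that keep their direction and most of their size, while the values of HIF1A, BNIP3L and P4HA1 shrink once the GC trend is removed.

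**Figure D3:**
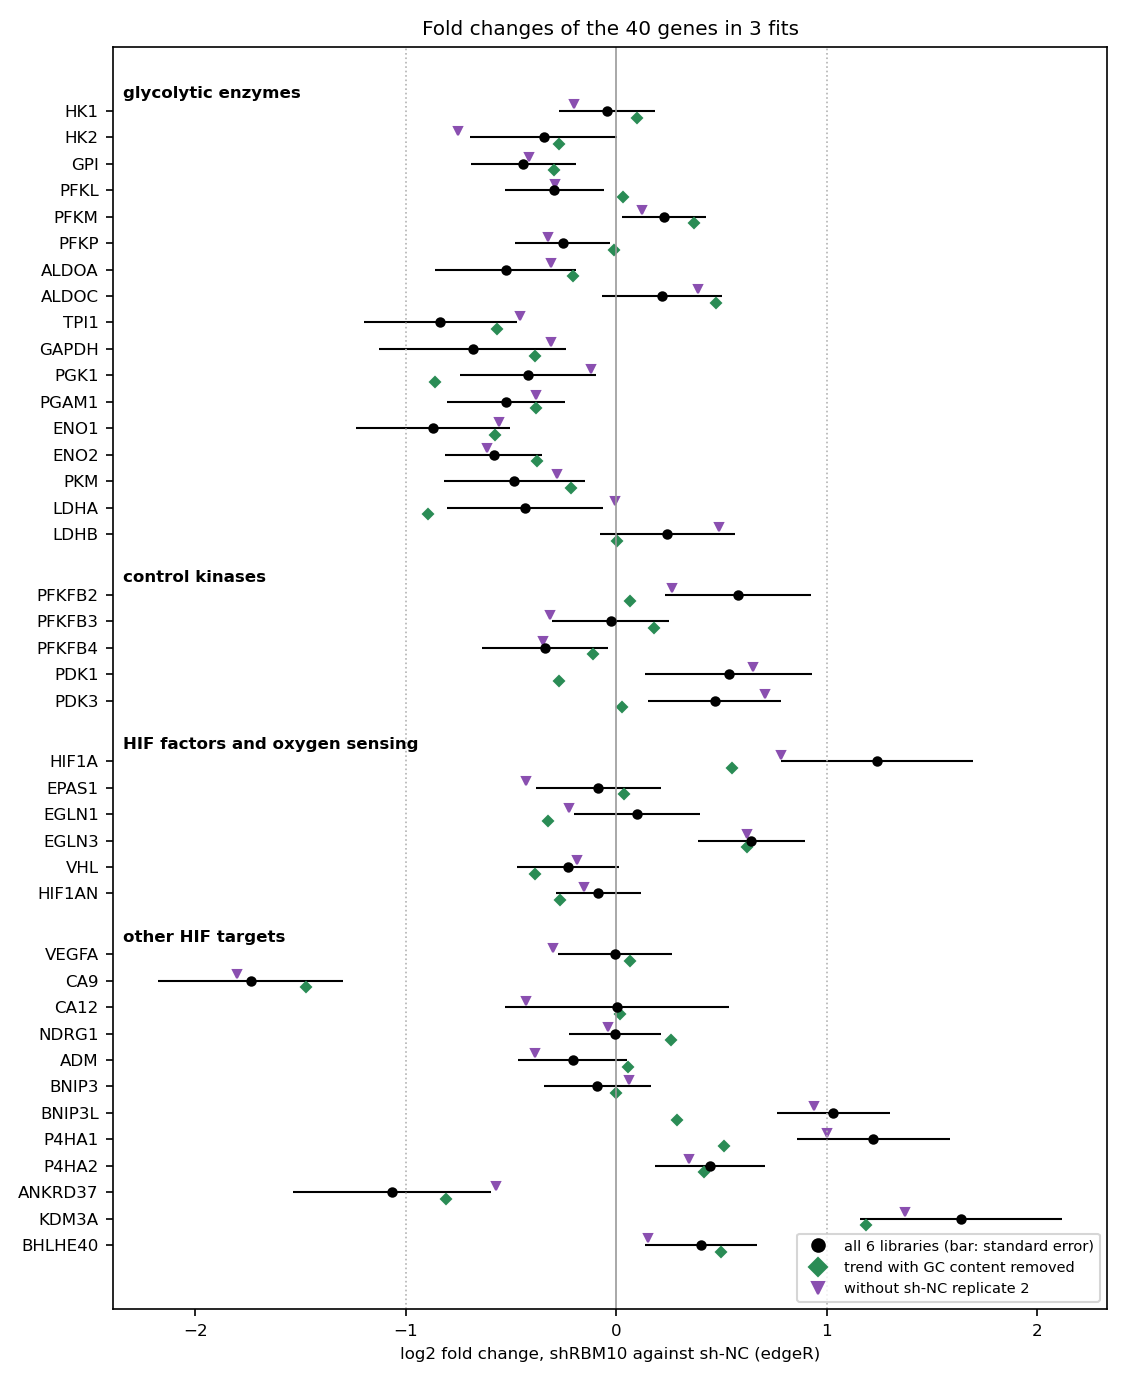
The log2 fold change of each of the 40 genes, shRBM10 against sh-NC (x axis), from edgeR with all 6 libraries (black, bar = standard error), with the GC trend removed (green) and without sh-NC replicate 2 (purple), with dotted lines at the fold limit. BNIP3L moves from 1.03 to 0.29 with the GC trend removed, while EGLN3 stays between 0.62 and 0.64.

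A ratio of related genes within a library is free of depth and scaling. Of 10 such log2 ratios, 5 did not overlap between the groups, each with a two-sided exact permutation p of 0.1, the smallest that 3 against 3 allows, and 0.2 after adjustment over the 10 ratios. The same 5 did not overlap with the GC trend removed. The share of other gene pairs whose ratios do not overlap was not computed. Of all single genes, 13.8% did not overlap as higher and 16.2% as lower in shRBM10. The log2 ratio of ALDOC to ALDOA was -7.03, -7.12 and -7.02 in sh-NC against -6.14, -6.33 and -6.46 in shRBM10. This difference of 0.75 in favor of ALDOC was 0.67 with the GC trend removed and between 0.66 and 0.82 with any 1 library left out. The log2 ratio of LDHA to LDHB was 1.50, 1.83 and 1.44 in sh-NC against 0.95, 0.84 and 1.21 in shRBM10. LDHA still exceeded LDHB in every library, but by less in shRBM10, with a difference of -0.59, or -0.80 with the GC trend removed. The log2 ratio of PFKM to PFKL was -0.38, -0.69 and -0.37 in sh-NC against 0.28, 0.11 and -0.22 in shRBM10, a difference of 0.54 that was 0.34 with the GC trend removed.

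The log2 ratio of EPAS1 to HIF1A was 2.57, 3.25 and 2.60 in sh-NC against 1.13, 0.85 and 2.42 in shRBM10. Libraries A and B stood far below sh-NC and library C just below, for a difference of -1.34, or -0.52 with the GC trend removed. The log2 ratio of BNIP3 to BNIP3L was 0.68, 1.29 and 0.66 in sh-NC against -0.62, -0.33 and 0.41 in shRBM10. Its difference of -1.06 was -0.27 with the GC trend removed. The ratios of HK2 to HK1 (-0.17), ENO2 to ENO1 (0.22), PFKP to PFKL (0.04), PDK3 to PDK1 (0.07) and P4HA2 to P4HA1 (-0.73) overlapped between the groups.

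**Figure D4:**
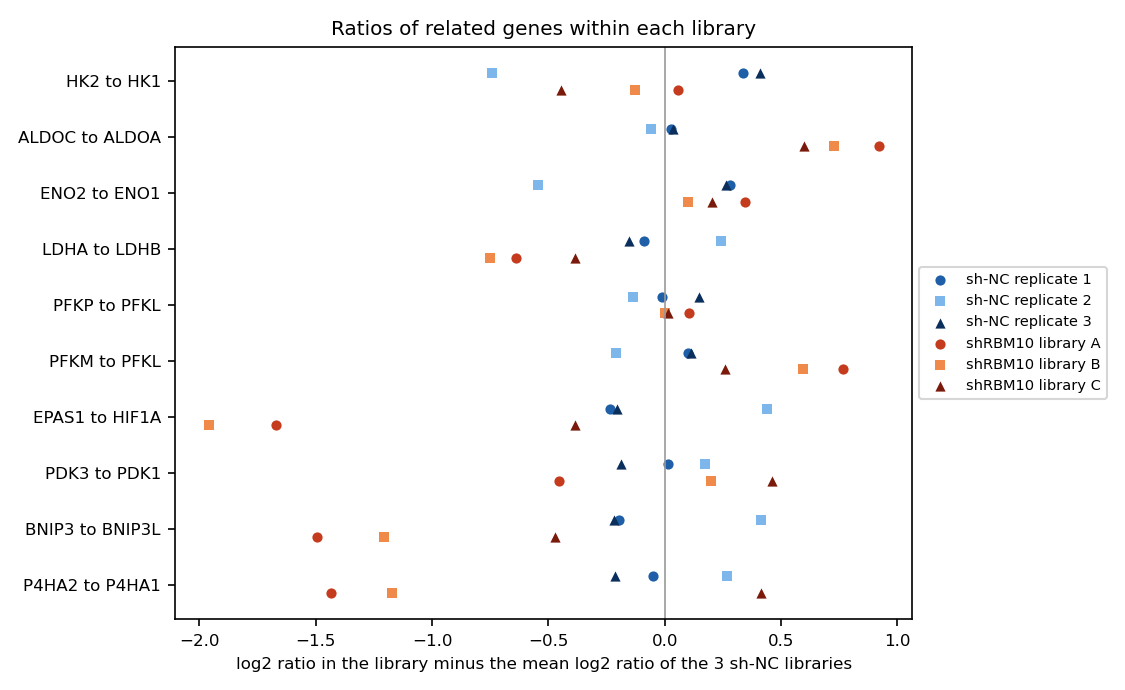
The log2 ratio of 10 pairs of related genes in each library, less the mean of the 3 sh-NC libraries (x axis), with blue points for sh-NC and red or orange points for shRBM10. The shRBM10 points lie to the right of all sh-NC points for ALDOC to ALDOA and PFKM to PFKL and to the left for LDHA to LDHB, EPAS1 to HIF1A and BNIP3 to BNIP3L.

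Because RBM10 acts on splicing, the shares of transcripts within a gene were compared. Of the 40 genes, 32 had at least 2 transcripts that could be tested, and 0 passed an adjusted p under 0.05 in edgeR's test of transcript usage, against 0.0971% of the 8237 genes tested. limma's test called 0 as well. At an unadjusted p under 0.05 there was 1 (KDM3A), against 2.79% of all genes. A read that fits several transcripts was divided among them by the authors' counting, so these counts are estimates.

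For PKM, transcripts that could be assigned to neither exon took between 0.54% and 0.89% of the counts in each library and were left out. Transcripts with the M1 exon took 1.20%, 1.10% and 1.04% of the M1 and M2 counts in sh-NC against 1.00%, 0.96% and 1.13% in shRBM10. Thus nearly all PKM transcripts carried the M2 exon in all 6 libraries, and the difference of -0.085 percentage points had a two-sided exact permutation p of 0.3. For VEGFA, the transcripts NM_001025370 and NM_001171628, which carry the same estimated counts, took 43.3%, 45.3% and 44.4% in sh-NC against 40.7%, 41.2% and 43.1% in shRBM10. Other VEGFA shares varied widely within a group. NM_001317010 took between 0.25% and 23.6% in sh-NC and between 0.56% and 26.5% in shRBM10. NM_001025368 with NM_001171626 took between 0.54% and 21.1% in sh-NC and between 0.0088% and 29.98% in shRBM10. The 7 VEGFA transcripts tested gave no call.

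KDM3A had the smallest p of the 32 genes (adjusted p = 0.305). Its transcript NM_001146688 had estimated counts of 0.00, 0.00 and 0.06 in sh-NC against 38.5, 243.9 and 47.6 in libraries A to C, or 7.01%, 60.1% and 33.0% of the gene's counts in shRBM10. The main sh-NC transcript, NM_018433, had 76.1, 50.8 and 131 in sh-NC against 422, 148 and 71.0 in shRBM10. The estimated counts of NM_001146688 were thus near 0 in every sh-NC library and above 0 in every shRBM10 library. Its shares differed widely between the shRBM10 libraries. Reads that fit both transcripts were divided by the counting, and reads particular to NM_001146688 were not examined. In GENCODE both begin with a noncoding exon, of 28 bases at chr2:86441461-86441488 for NM_001146688 and of 297 bases at chr2:86441148-86441444 for NM_018433, and both encode the same 1321 residues. In the limma test the adjusted p of KDM3A was 0.933.

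LDHA was next (adjusted p over 0.9). Its transcript NM_001165414 took 0.64%, 0.65% and 0.66% of the gene's counts in sh-NC against 1.48%, 2.04% and 1.65% in shRBM10. The share was thus tight in sh-NC and higher in every shRBM10 library, by 1.08 percentage points. This transcript had the smallest p of the 5 LDHA transcripts tested. Its two-sided exact permutation p of 0.1, the smallest possible, comes from the same values and is no separate support. It begins at another first exon, chr11:18396266-18396610, downstream of the promoter window printed above, with a start codon of its own that adds 29 residues to the protein. The common transcript NM_005566 begins at chr11:18394388-18394636 and took between 97.7% and 99.1% in each library. Its first base lies inside the printed window, upstream of the start on which that window was built. PGAM1, the gene with the next smallest p, gave no call either.

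**Figure D5:**
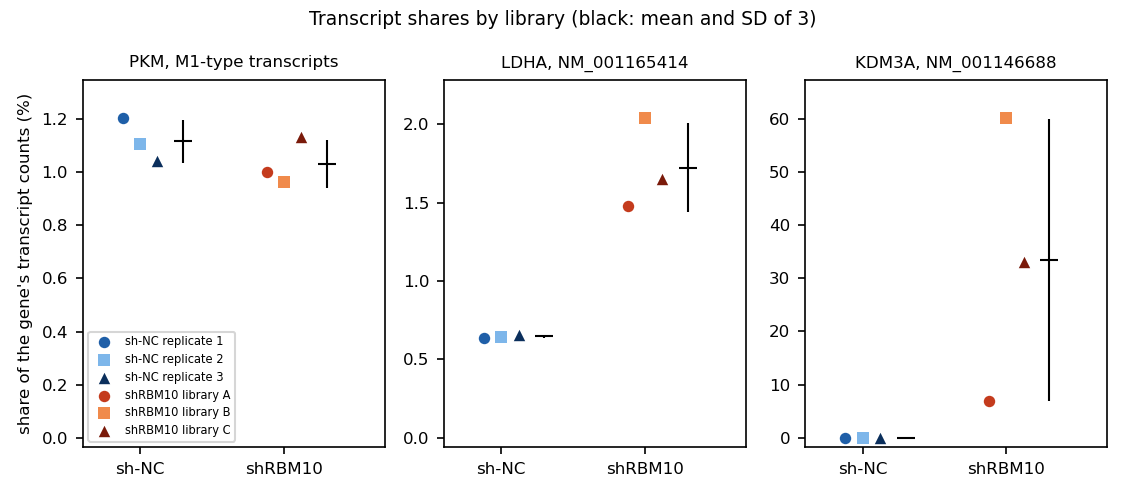
Share of a gene's transcript counts (y axis, percent) taken by the M1-type transcripts of PKM (of M1 and M2 counts), by NM_001165414 of LDHA and by NM_001146688 of KDM3A in each library, with the mean and SD of each group in black. The PKM share stays near 1% in both groups, the LDHA share is 0.64% to 0.66% in sh-NC against 1.48% to 2.04% in shRBM10, and the KDM3A share is near 0 in sh-NC against 7.01% to 60.1% in shRBM10.

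Further genes came from 5 lists drawn up around these pathways, and 89 of their 106 genes were tested. The lists were glucose and lactate transport, side steps of glycolysis, pyruvate entry, HIF partners and degradation, and further HIF targets. Being listed does not show that a gene acts in the pathway. Of the 89, 0 passed the adjusted test with the fold limit in edgeR and limma-voom, and DESeq2 called 3 higher, beside 3.64% of all genes, and 1 lower, beside 1.0%. At an unadjusted p under 0.05 with the fold limit 6 were higher, beside 10.1% of all genes, and 1 lower, beside 1.53%. With the GC trend removed 2 were higher and 3 lower, beside 2.44% and 2.16%. ARNT2, a partner of the HIF alpha subunits, stood at 191, 231 and 226 in sh-NC and at 49.3, 45.0 and 66.3 in shRBM10. It was lower in every shRBM10 library (log2 fold change -2.01, SE 0.30, adjusted p = 0.0892) and had a change of -1.90 with the GC trend removed. SLC2A12, a glucose transporter, stood at 33.6, 39.7 and 39.7 in sh-NC and at 183, 127 and 95.1 in shRBM10 (1.84, SE 0.34, adjusted p = 0.10, and 1.16 with the GC trend removed). SLC16A4, a member of the monocarboxylate transporter family, had a change of 1.09 and the glucose transporter SLC2A3 of 0.97, against 0.33 and 0.69 with the GC trend removed. PGAM5 had a change of -0.82 and MAFF of -0.64, against -0.63 and -0.35 with the GC trend removed. The groups did not overlap in any of these 6 genes, which were picked for their small p. Of the 89 genes, 12 higher and 15 lower in shRBM10 did not overlap, beside 13.8% and 16.2% of all genes.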

How the data were processed

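RNA-seq of 3 sh-NC and 3 shRBM10 libraries of PC9 cells was analysed from tables per gene and per transcript. The authors deposited estimated counts in both, and only these and the authors' TPM of the sh-NC libraries, per the file headers, were used. Sequencing was by BGI-Tech, and the submitters' processing notes name hg38. The aligner, the counting tool and the annotation are not given in the sources used here, nor whether counting used strand. Of the estimated counts, 87.5% per gene and 41.1% per transcript are whole. The tables also hold 15 and 18 columns of values per library that were not used, because columns matching no sample title were admitted for 1 measure, and 8 columns of group means each. A pair of shRBM10 columns could be matched to the group and not to a sample. Totals lay between 16606390 and 18864243 counts per library. Depth limits genes of few counts such as CA9.

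The members and lists were chosen with earlier results of these data known. Estimated counts were rounded, filtered by filterByExpr (12620 genes), scaled by TMM and compared by edgeR's quasi-likelihood F test (version 4.0.16 in R 4.3.3, with limma 3.58.1) in 1 fit of the 6 libraries without covariates. Adjusted p-values are Benjamini-Hochberg values over all genes tested. A call required both an adjusted p below 0.05 and a log2 fold change above 1 in size. The standard error is the fold change divided by the square root of F. Transcripts of a gene with the same counts in all libraries were summed, and usage was tested with diffSpliceDGE (Simes p). Ratios were tested with two-sided exact permutation tests (SciPy 1.17.1), for which 3 against 3 cannot go below 0.1. GC content, transcript length, exons and gene coordinates are from GENCODE release 29 (GRCh38), with GC content for 99.5% of the genes tested. Scripts were tested on simulated data. Values per library are printed for members with an unadjusted p under 0.05 and a log2 fold change over 1 in size, members whose groups do not overlap, and HIF1A, EPAS1, GAPDH, PKM, LDHA, LDHB, VEGFA, CA9, HK1 and HK2. Of the further lists, the 3 genes per direction with the smallest p are named, and of transcripts PKM, VEGFA and the 3 members with the smallest Simes p. Alternatives were DESeq2 1.42.0, limma-voom, other scalings and filters, GC and length trends removed, and each library left out.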

Additional observations from a re-analysis of the deposited data

How the results depend on the processing

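No paired analysis was possible because the groups share only 1 replicate number that could be matched to columns. Of the 40 genes, 0 were called under every edgeR and limma alternative, each library left out included, and DESeq2 called 3. A call needs the fold limit too, and some changes below that limit had an edgeR adjusted p under 0.05. With the GC trend removed and without sh-NC replicate 2 these were EGLN1 (-0.55, adjusted p = 0.020), HK2 (-0.61, 0.026), ALDOC (0.67, 0.026) and EGLN3 (0.67, 0.028). With GC and length trends removed the lowest adjusted p of the 40 genes was 0.045. The 4 genes higher at an unadjusted p under 0.05 with the fold limit became 1 with the GC trend removed, 1 with GC and length trends removed and 1 with the GC trend removed and without sh-NC replicate 2 (an alternative chosen after seeing the data), and between 1 and 4 with 1 library left out, down to 1 without library A, 2 without library B and 2 without sh-NC replicate 2. The 2 lower genes became 1 under limma-voom, upper quartile scaling, library size only, a minimum of 10 counts in every library and each of the 3 settings that remove GC, and between 1 and 4 with 1 library left out (1 without sh-NC replicate 2 or library A, 4 without sh-NC replicate 1 or 3).

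The median log2 fold change of the glycolytic enzymes lay between -0.58 and -0.31 with 1 library left out and was -0.034 with the GC trend removed and without sh-NC replicate 2. That of the other HIF targets lay between -0.0094 and 0.24 with 1 library left out, and was 0.11 under limma-voom, 0.22 with at least 10 counts in every library, 0.16 with the GC trend removed, 0.17 with GC and length trends removed and 0.24 with the GC trend removed and without sh-NC replicate 2. RBM10 lay between -1.43 and -1.17 with 1 library left out; it passed both limits without sh-NC replicate 2 (-1.42), in DESeq2 (-1.26), with GC and length trends removed (-1.02) and with the GC trend removed and without sh-NC replicate 2 (-1.08). Of the 22 genes with values per library, 5 changed sign in some alternative. HK1 was 0.059 under library size only, 0.099 and 0.061 with GC or GC and length trends removed and between -0.20 and 0.019 with 1 library left out. GAPDH (-0.68 with all libraries) was 0.0085 and PKM (-0.48) was 0.018 with the GC trend removed and without sh-NC replicate 2. EPAS1 was 0.039 with the GC trend removed and between -0.43 and 0.073 with 1 library left out. VEGFA was 0.026 under limma-voom, 0.023 under upper quartile scaling, 0.064 under library size only, 0.013 with at least 10 counts in every library, 0.067 with GC and 0.071 with GC and length trends removed, and between -0.30 and 0.14 with 1 library left out. Of the ratios, PFKP to PFKL was -0.040 with the GC trend removed and lay between -0.028 and 0.11 with 1 library left out, HK2 to HK1 between -0.54 and 0.031, ENO2 to ENO1 between -0.056 and 0.36, and PDK3 to PDK1 between -0.13 and 0.33; these 4 overlapped between the groups. The cause of these changes was not tested. No member passed the test of transcript usage under any alternative run. Depth limits CA9, with counts below 25 in every library.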
